A study of Mus musculus with 62 samples.

Results

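Gastrocnemius muscle of wild-type mice that received an adeno-associated virus (AAV) carrying ChREBP was compared with muscle that received a GFP virus. The comparison took the 10 AAV libraries of the 62 samples in the series, 5 labelled AAV-CON (AAV-GFP below) and 5 labelled AAV-MLXIPL (AAV-ChREBP below). Of the 21039 genes in the table, 11058 had an average over the 10 libraries of 0.5 FPKM or more (fragments per kilobase of transcript, scaled to each library's mapped fragments) and were tested. All mice were male C57BL/6J, 8 to 10 weeks old at injection, and muscle was taken 14 days after intramuscular injection. The labels name no other treatment, and the diet of these mice was not stated. The vector was of serotype 9 and used the CMV promoter, which is not specific to myofibres, to drive full-length mouse ChREBP or GFP. Both groups therefore had an injection and a virus. The libraries of each group carried the numbers 1, 3, 4, 7 and 8. The study's methods give 5 mice per group, and the labels do not say what a shared number marks. The comparison asked what a raised level of ChREBP changes in the muscle of wild-type mice.

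ChREBP, encoded by Mlxipl, is a transcription factor of the basic helix-loop-helix leucine zipper class that responds to sugar metabolites. It binds DNA as a dimer with Mlx at carbohydrate response elements, which are pairs of E-box-like motifs. In liver and fat it drives genes of glycolysis, fructose use and fatty acid synthesis, and MondoA (Mlxip) is the paralogue that predominates in skeletal muscle. Txnip and Arrdc4, arrestins that restrain glucose uptake, are classical targets of both factors.

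Depth, estimated from the step between low values, was 15600000 to 20200000 fragments per library, with a median of 16300000 in AAV-GFP and of 16800000 in AAV-ChREBP. At that depth, 0.5 FPKM of a transcript of 2 kb stands for about 15.6 to 20.2 fragments. Between 33.2% and 37.4% of the summed FPKM came from 10 genes. Correlations of log2 values between libraries of 1 group lay between 0.983 and 0.993. The 10 defining genes of the myofibre summed to 78482 to 87949 FPKM with AAV-GFP and to 78135 to 84708 FPKM with AAV-ChREBP. In such bulk tissue, fewer cells of a type and less RNA per cell cannot be told apart.

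Mlxipl was the single gene that rose past an adjusted p of 0.05. Its FPKM in AAV-GFP libraries 1, 3, 4, 7 and 8 was 12.3, 11.8, 10.9, 10.35 and 11.3. In the AAV-ChREBP libraries of the same numbers it was 86.0, 101.1, 97.3, 52.9 and 79.9. The groups lay far apart, and AAV-ChREBP library 7 was the lowest of its group. The mean rose from 11.3 ± 0.749 to 83.5 ± 19.1 FPKM (SD, n = 5 each), a ratio of means of 7.37. The log2 fold change, AAV-ChREBP minus AAV-GFP on the log2(FPKM + 1) scale used throughout, was 2.74 with an SE of 0.14 (limma adjusted p = 2.46e-06). A 2-sided exact permutation test gave p = 0.00794, the smallest that 5 against 5 allow. A gene-level value holds vector-derived and endogenous transcripts together. AAV-GFP muscle itself expressed Mlxipl at a level close to that of Mlxip.

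Apart from Mlxipl, the profiles of the vectors differed little. Of the 11058 genes, 98.3% had a log2 fold change under 0.25 in size, and 19 reached 0.5. The study's criterion was a log2 fold change of at least 1 in size with an unadjusted p under 0.05, applied to DESeq2 on counts. Here it was applied to limma on log2(FPKM + 1), which shrinks the fold changes of low genes. On that scale 2 genes passed (0.0181% of those tested), Mlxipl and Sln. With a pseudocount of 0.1 in place of 1, 5 passed, namely these 2, H2-Q7 and, named after their values were seen, Ltc4s and H2ac19. Mlxipl alone passed the adjusted p (0.00904%), and the next smallest adjusted p was 1.00 (limma). At an unadjusted limma p under 0.05, called nominal here, 264 genes were higher with AAV-ChREBP (2.39%) and 58 were lower (0.525%). Of these, 13 of the higher and 4 of the lower ones had a mean under 0.5 FPKM in the other group and reached the filter only through the group where they were high. The higher share was 82.0% of the nominal genes, and 66.4% (204 higher, 103 lower) once each library was rescaled by its median ratio. Values of the groups did not overlap for 54 genes that were higher (0.488%) and 10 that were lower (0.0904%), and after the rescaling for 33 and 16. The median log2 fold change over all genes was 0.02, and 64.2% of genes had a positive value. With the library number as a block, 647 genes were nominal (476 higher, 4.3%, and 171 lower, 1.55%), and Mlxipl alone again passed the adjusted p. Over pairs of equal library number, 635 genes (5.74%) were higher and 204 (1.84%) lower in all 5.

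**Figure D1:**
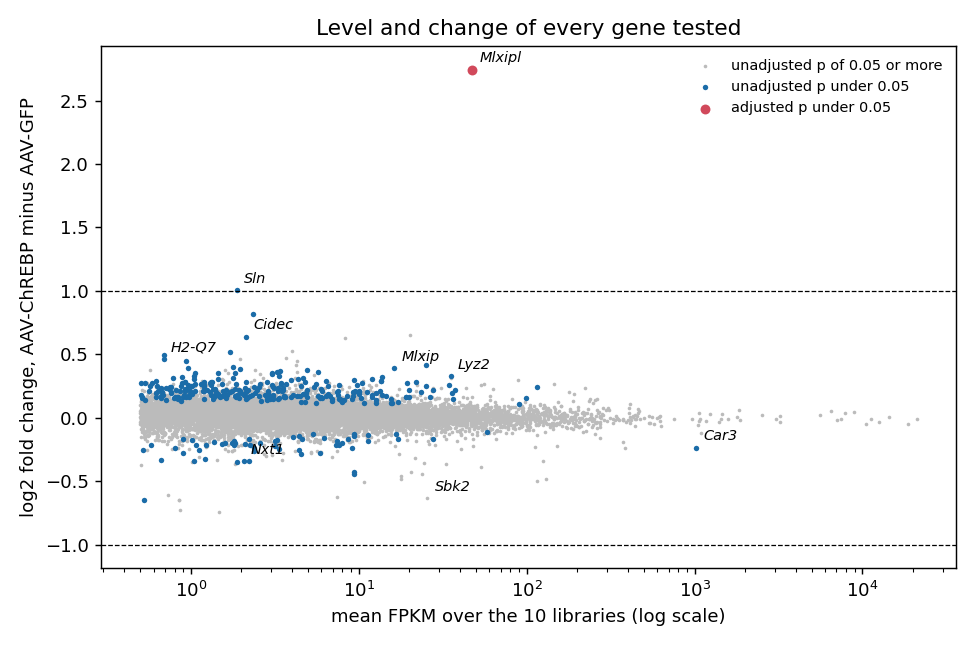
Each point is 1 of the 11058 genes tested, placed by its mean FPKM over the 10 libraries (log axis) and its log2 fold change, AAV-ChREBP minus AAV-GFP. Blue marks an unadjusted p under 0.05, red an adjusted p under 0.05, and the dashed lines a log2 fold change of 1 in either direction. Mlxipl stands alone at 2.74, and Sln lies on the upper line.

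Among the partners and relatives of ChREBP, Mlxip, the MondoA gene, was the other nominal one. Its FPKM was 12.0, 13.1, 12.1, 16.1 and 16.7 in AAV-GFP libraries 1, 3, 4, 7 and 8, against 16.0, 18.1, 18.4, 20.5 and 19.8 with AAV-ChREBP. Each AAV-ChREBP library lay above the AAV-GFP library of its number, although the lowest of them lay inside the AAV-GFP range. The log2 fold change was 0.39 (SE 0.10, exact permutation p = 0.0238), and it was nominal in all 10 fits that left out 1 library. The adjusted p was 1.00, and 0.121 with the library number as a block (limma).

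Mlx, the shared dimer partner, had 4.81, 5.55, 4.12, 4.78 and 4.62 FPKM with AAV-GFP and 3.67, 4.41, 4.08, 3.84 and 4.75 FPKM with AAV-ChREBP. It was lower in 4 of 5 pairs, with overlapping groups, and its log2 fold change of -0.17 (SE 0.08, exact permutation p = 0.0635) was not nominal. Max, the partner of Myc, had a log2 fold change of 0.08 (SE 0.15), Mga, a repressor that pairs with Max, 0.04 (SE 0.08), and Myc 0.11 (SE 0.17). With 1 library left out, Max ran from -0.03 to 0.19, Mga from -0.02 to 0.07 and Myc from -0.01 to 0.19. Of the 10 genes listed for this network 9 were tested, and 7 were higher and 2 lower. Without AAV-GFP library 7 or AAV-ChREBP library 8, 5 were higher and 4 lower. The nominal ones were Mlxipl and Mlxip (2.39% of all genes on the high side). Mlx joined them on the low side with the library number as a block (1.55% of all genes). Mxd3, at a mean of 0.0254 and 0.122 FPKM, was under the filter.

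**Figure D2:**
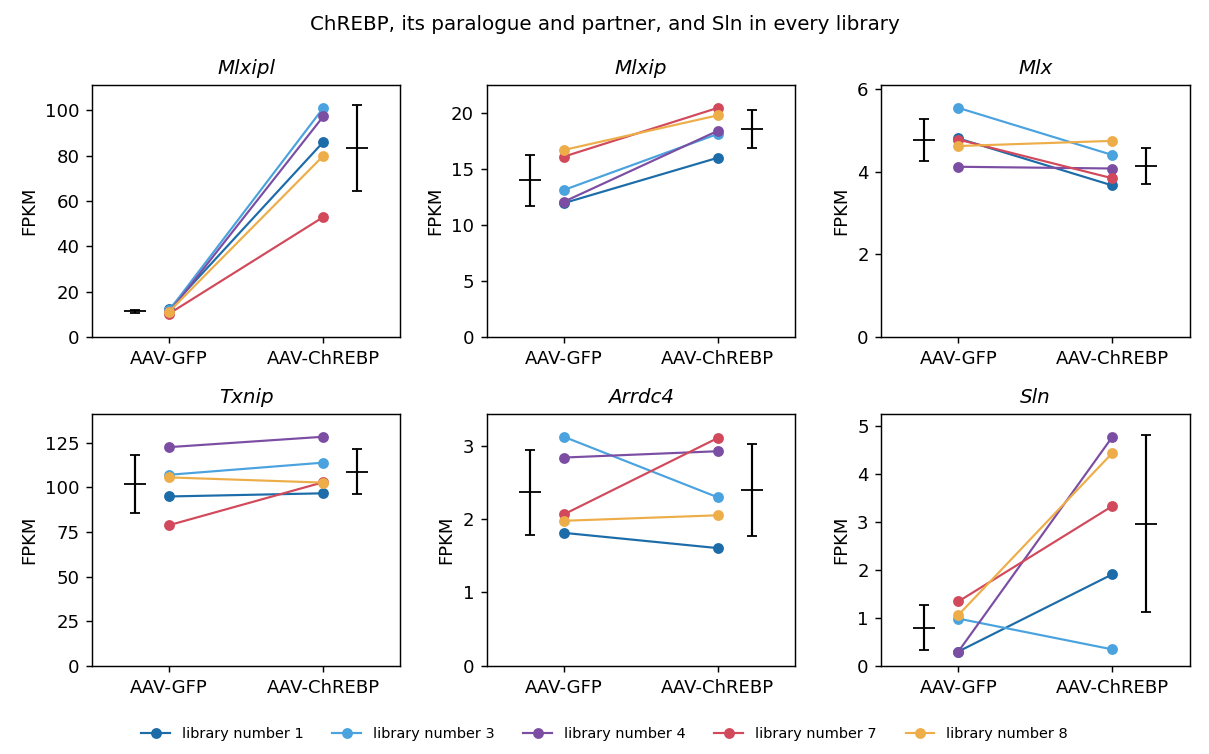
FPKM of Mlxipl, Mlxip, Mlx, Txnip, Arrdc4 and Sln in every library, with a line joining AAV-GFP and AAV-ChREBP libraries of the same number, and the mean ± SD (n = 5) in black beside each group. Mlxipl separates the vectors, Mlxip is higher in all 5 pairs, and Txnip and Arrdc4 overlap.

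The arrestin genes, which carry the best known response elements, did not differ beyond the spread of the libraries. Their promoters are shown here as the 250 bases before the RefSeq transcription start (build GRCm38.p6), together with the upstream of the 2 starts RefSeq lists for Mlxipl, 17001 bases apart. Capitals mark the E-box CACGTG, which reads the same on both strands, or the paired motif, which is CACGNG followed after 5 bases by another CACGNG, searched on both strands (each CACGNG is an E-box where N is T). The Txnip window is chr3:96557707-96557956 (+ strand), the Arrdc4 window chr7:68749239-68749488 (- strand) and the Mlxipl window chr5:135089640-135089889 (+ strand).
Txnip: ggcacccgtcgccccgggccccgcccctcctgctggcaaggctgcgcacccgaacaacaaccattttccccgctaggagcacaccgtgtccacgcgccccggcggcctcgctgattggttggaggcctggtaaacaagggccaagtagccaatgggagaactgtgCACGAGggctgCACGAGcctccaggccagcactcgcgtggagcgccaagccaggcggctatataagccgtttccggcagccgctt
Arrdc4: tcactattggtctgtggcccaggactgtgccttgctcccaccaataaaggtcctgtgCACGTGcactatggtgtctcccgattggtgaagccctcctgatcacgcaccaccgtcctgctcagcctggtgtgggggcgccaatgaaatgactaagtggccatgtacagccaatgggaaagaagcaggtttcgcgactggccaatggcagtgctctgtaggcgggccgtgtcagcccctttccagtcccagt
Mlxipl: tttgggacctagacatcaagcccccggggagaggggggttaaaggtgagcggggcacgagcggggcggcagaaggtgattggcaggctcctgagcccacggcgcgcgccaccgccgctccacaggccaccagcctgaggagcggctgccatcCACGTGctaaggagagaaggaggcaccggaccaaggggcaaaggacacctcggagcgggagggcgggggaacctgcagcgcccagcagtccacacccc
The paired motif of Txnip began 85 bases before the start, the E-box of Arrdc4 193 bases before it, and that of Mlxipl 98 bases before it. The E-box was found in 6.02% of all 32851 promoter windows and the paired motif in 0.0457% of them. Of 52 genes in the arrestin, lipid and sugar lists 39 matched a promoter, with 53 windows in all. Of these windows 9 (17%) held an E-box and 1 (1.89%), that of Txnip, the paired motif.

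Txnip had 94.9, 107.1, 122.6, 78.9 and 105.6 FPKM in AAV-GFP libraries 1, 3, 4, 7 and 8. With AAV-ChREBP it had 96.7, 113.9, 128.4, 102.9 and 102.7 FPKM. The groups overlapped over most of their range, and 4 of 5 pairs were higher. The log2 fold change was 0.10 with a 95% interval from -0.14 to 0.34 (exact permutation p = 0.444). Dropping AAV-GFP library 7 made it 0.02, and dropping AAV-GFP library 4 made it 0.17. Arrdc4 had 1.81, 3.12, 2.84, 2.06 and 1.98 FPKM with AAV-GFP and 1.60, 2.29, 2.92, 3.1 and 2.05 FPKM with AAV-ChREBP. Its log2 fold change was 0.01 with an interval from -0.30 to 0.32 (exact permutation p = 0.937).

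The list as a whole gave 7 tested genes, 5 higher and 2 lower, none nominal, with a median log2 fold change of 0.06 against 0.02 over all genes. Dropping AAV-GFP library 7 made it -0.02 with 2 higher and 5 lower. It was at most 0.03 without AAV-GFP library 8 or AAV-ChREBP library 3 or 4, and 0.12 without AAV-GFP library 4 or AAV-ChREBP library 7. Klf10, a repressor that damps ChREBP targets, had 4.22 ± 0.994 and 4.41 ± 0.826 FPKM. Bhlhe40, a clock-linked repressor, had 18.7 ± 5.74 and 19.6 ± 5.17 FPKM. Rgs16 and Fgf21, hepatic ChREBP targets, had group means of 0.258 and 0.270 FPKM and of 0 and 0.0134 FPKM and were not tested.

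Lipid synthesis targets had mostly positive fold changes, as did 64.2% of all genes, and 1 was nominal on the high side (2.39% of all genes). Of 20 listed genes 18 were tested, 15 higher and 3 lower, with a median log2 fold change of 0.16. With the library number as a block, 5 were nominal, all of them higher (4.3% of all genes). Acaca, the acetyl-CoA carboxylase that starts fatty acid synthesis, had 2.33, 2.31, 2.21, 1.97 and 2.37 FPKM with AAV-GFP. With AAV-ChREBP it had 2.93, 2.39, 2.75, 4.27 and 2.42 FPKM, with no overlap (0.488% of all genes on the high side). Its log2 fold change was 0.27 (SE 0.11, exact permutation p = 0.00794). It was nominal in 7 of 10 fits that left out 1 library, the exceptions being AAV-GFP libraries 4 and 7 and AAV-ChREBP library 1. Without AAV-ChREBP library 7 the log2 fold change was 0.16.

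Srebf1, the gene of the lipogenic factor SREBP-1, was higher in all 5 pairs (5.74% of all genes were), at 5.67 ± 0.801 and 6.88 ± 1.31 FPKM (log2 fold change 0.23, SE 0.12). Pnpla3, a lipid droplet acyltransferase and lipase, was also higher in all 5 pairs, at 1.67 ± 1.36 and 2.11 ± 1.43 FPKM (log2 fold change 0.24, SE 0.34). Its fold change rested on single libraries, at 0.02 without AAV-ChREBP library 8 and 0.49 without AAV-GFP library 8. Fatty acid synthase, Fasn, had 2.70, 2.47, 3.21, 3.87 and 3.89 FPKM with AAV-GFP and 4.33, 3.33, 2.84, 12.2 and 3.64 FPKM with AAV-ChREBP. Its high value lay in library 7, and the log2 fold change of 0.42 (SE 0.28) was not nominal and was 0.11 without that library. Scd1, the fatty acid desaturase with the largest fold change of the list (0.50, SE 0.32), had 19.0 ± 6.38 and 29.3 ± 16.8 FPKM, with its highest value, 57.1 FPKM, in the same library, without which the fold change was 0.23. Without AAV-ChREBP library 7, the median of the list was 0.08, with 14 genes higher and 4 lower.

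Adipocytes use the same synthesis enzymes. The mean log2(FPKM + 1) of the tested adipocyte markers was highest in AAV-ChREBP libraries 1 and 7 (3.67 and 3.66). Adipoq, the adiponectin gene of fat cells, had 2.91, 3.07, 5.59, 1.65 and 2.29 FPKM with AAV-GFP and 6.49, 4.65, 3.18, 7.55 and 2.70 FPKM with AAV-ChREBP. Of 13 listed adipocyte markers 9 were tested, 8 higher and 1 lower, with a median log2 fold change of 0.20, while Ucp1 was at 0 in every library. The lower one, Car3, was nominal on the low side and its groups did not overlap (0.525% and 0.0904% of all genes). Cidec, a lipid droplet protein, was nominal (1.40 ± 0.643 and 2.87 ± 1.53 FPKM, log2 fold change 0.64, SE 0.24) in 7 of the 10 fits that left out 1 library. Those without AAV-GFP library 7 and without AAV-ChREBP library 1 or 7 left no marker nominal on the high side. Dropping AAV-GFP library 7 made the median 0.12, and dropping AAV-GFP library 4 or 8 made it 0.33 or 0.32. With a pseudocount of 0.1 it was 0.49, and with a filter at 5 FPKM, which 3 of these markers reach, 0.09. Cfd, the adipocyte complement factor, had a log2 fold change of 0.65 (SE 0.30). The summed level of the list was 1114 to 1316 FPKM with AAV-GFP and 956 to 1149 FPKM with AAV-ChREBP, most of it Car3, which muscle also makes in bulk. The part of these cells in the lipid gene values was not tested.

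Sugar targets gave 14 tested genes of 23 listed, 9 higher and 5 lower, with a median log2 fold change of 0.08. With the library number as a block, 3 were nominal on the high side and 2 on the low side (4.3% and 1.55% of all genes). The median was 0.01, with 7 genes on each side, without AAV-GFP library 8. It was 0.02 once library 1 or 3 of that group was dropped, with a filter at 5 FPKM or with none. It was also lower without AAV-ChREBP library 8 (0.03, 7 on each side) or 7 (0.05). Tkt, the transketolase of the pentose phosphate pathway, was the nominal one, at 2.84 ± 0.490 and 4.00 ± 1.15 FPKM (log2 fold change 0.36, SE 0.14, exact permutation p = 0.0556). Its highest value, 5.91 FPKM, was again in AAV-ChREBP library 7, without which the log2 fold change was 0.24. It was not nominal without AAV-GFP library 1 or 4. Pfkfb2, which makes the activator of phosphofructokinase, had a log2 fold change of 0.18 (SE 0.09), and Pgd, a dehydrogenase of the same pathway, 0.14 (SE 0.08). Khk, the fructokinase that commits fructose to breakdown, had 4.61 ± 0.482 and 5.21 ± 0.682 FPKM. The glucose transporter GLUT4, Slc2a4, was level at 144.8 ± 5.02 and 145.2 ± 5.41 FPKM. The liver genes Pklr, Gckr, Slc2a2 and Fbp1 were at 0 in every library.

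Glycolysis genes were split. Of 17 enzymes tested, 9 were higher and 8 lower, none nominal, and log2 fold changes ran from -0.21 to 0.08. The counts moved to 16 higher and 1 lower without AAV-GFP library 1, and dropping AAV-GFP library 7 or 8 made them 12 and 5 or 7 and 10. Aldoa, the muscle aldolase and the most abundant of them, had 7789 ± 628 and 8000 ± 693 FPKM. Pkm, the pyruvate kinase, had 1451 ± 89.1 and 1482 ± 38.5 FPKM, and Pfkp, a minor phosphofructokinase, 1.49 ± 0.228 and 1.65 ± 0.442 FPKM.

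Genes of fatty acid use were mostly lower by small amounts, with none nominal. Of 29 tested genes 26 were lower and 3 were higher. The median log2 fold change was -0.06, and it stayed between -0.12 (AAV-GFP library 4 dropped) and -0.03 (AAV-GFP library 3 dropped) over the alternatives. With the library number as a block, 2 were nominal on the low side (1.55% of all genes), as were 4 without AAV-GFP library 4 (1.07% of all genes). Plin5, which coats lipid droplets at mitochondria, had the largest difference, at 2.06 ± 0.654 and 1.55 ± 0.450 FPKM (log2 fold change -0.25, SE 0.16). Acaa2, the last thiolase of the cycle, was at -0.19 (SE 0.13), Acadl, the long-chain dehydrogenase, at -0.17 (SE 0.13), and Fabp3, the muscle fatty acid carrier, at -0.22 (SE 0.19). Dropping AAV-GFP library 3 made these -0.10, -0.08 and -0.09, and dropping AAV-GFP library 4 made them -0.31, -0.25 and -0.39. Plin5 was at -0.16 without AAV-ChREBP library 1 and at -0.37 once AAV-GFP library 4 was dropped. Cpt1b, the gate of fatty acid entry into mitochondria, had 68.1 ± 4.20 and 65.9 ± 2.84 FPKM. The tricarboxylic acid cycle gave 18 of 21 genes lower with a median of -0.02 (11 of 21 lower without AAV-GFP library 1 or 3), and citrate synthase, Cs, had 259 ± 11.5 and 253 ± 5.25 FPKM. Respiratory chain and ATP synthase subunits gave 32 of 40 lower with a median of -0.02, which became 0.02, with 18 of 40 lower, without AAV-GFP library 7. Of 18 regulators of oxidative metabolism 10 were higher and 8 lower, none nominal, and 7 were higher and 11 lower without AAV-GFP library 8 or AAV-ChREBP library 7.

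Fibre type genes varied widely within both groups. The slow-twitch score, the mean log2(FPKM + 1) of Myh7, Myh7b, Tnnc1, Tnni1 and Tnnt1, averaged 2.73 ± 1.69 in AAV-GFP and 2.55 ± 1.33 in AAV-ChREBP muscle. Myh7, the slow myosin heavy chain, had 3.71, 24.2, 0.042, 54.0 and 20.4 FPKM in AAV-GFP libraries 1, 3, 4, 7 and 8. With AAV-ChREBP it had 1.38, 1.27, 13.3, 37.1 and 17.5 FPKM. Both groups spanned more than 10-fold, library 7 was the highest in each, and AAV-GFP library 4 had next to none. The log2 fold change of -0.28 had a 95% interval from -2.61 to 2.05 (exact permutation p = 0.825), so that a 4-fold difference in either direction was not detectable.

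Of 10 slow genes tested 9 were lower, and the median log2 fold change was -0.26. It was -0.97 once AAV-GFP library 4 was dropped and -0.64 once AAV-ChREBP library 7 was. Its sign turned on dropping AAV-GFP library 7 (0.20) or AAV-ChREBP library 1 (0.14) or 3 (0.01). It was -0.01 and -0.09 once AAV-GFP library 3 or 8 was dropped, and -0.12 with a pseudocount of 0.1. The smallest limma p in the list belonged to Mybpc1, the slow myosin binding protein (log2 fold change -0.34, SE 0.30). Its fold change was -0.22 without AAV-GFP library 7. Without AAV-GFP library 4 it was -0.62 and nominal, as 1.07% of all genes were on the low side. Without AAV-GFP library 4, Myh2, a fast oxidative myosin, Myl3, a slow light chain, Myoz2, a Z-disc protein, and Csrp3, a muscle LIM protein, passed the study's criterion on the low side. Their log2 fold changes were then -1.16, -1.28, -1.08 and -1.17, and the adjusted p of each was 1.00 (limma).

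The fast-twitch genes tested gave no nominal difference. The fast-twitch score, the mean log2(FPKM + 1) of Myh2, Myh1, Myh4, Tnnc2, Tnni2 and Tnnt3, was 11.4 ± 0.352 and 11.3 ± 0.184. Myh2, the fast oxidative myosin, had a log2 fold change of -0.48 (SE 0.64), which dropping AAV-GFP library 4 made -1.16 and dropping library 7 of that group made -0.22. Myh4, the fast glycolytic myosin, had 14154, 13153, 15035, 15119 and 14255 FPKM with AAV-GFP and 15009, 13679, 14506, 14866 and 13891 FPKM with AAV-ChREBP. These ranges overlapped almost fully, and the log2 fold change was 0.01 with an interval from -0.14 to 0.15 (exact permutation p = 0.889). Tnnt3, the fast troponin T and the most abundant gene of the list, had 19080 ± 893 and 18414 ± 1177 FPKM. Myh1 had 291.2 ± 113 and 257 ± 117 FPKM. Of 12 fast genes tested 2 were higher and 10 lower, with a median of -0.02. Without AAV-GFP library 4 or AAV-ChREBP library 7, 8 were higher and 4 lower, and after rescaling by the median ratio all 12 were lower. Myosin heavy chain genes are close in sequence, so that reads may be shared among them.

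Sln, the gene of sarcolipin, a small peptide that uncouples the sarcoplasmic calcium pump, was the second gene past the study's criterion. It had 0.300, 0.985, 0.299, 1.34 and 1.06 FPKM in AAV-GFP libraries 1, 3, 4, 7 and 8. With AAV-ChREBP it had 1.91, 0.344, 4.77, 3.33 and 4.43 FPKM. Library 3 went the other way, inside the AAV-GFP range, and the other 4 AAV-ChREBP libraries lay above it. The means were 0.797 ± 0.473 and 2.96 ± 1.84 FPKM, with a log2 fold change of 1.01 (SE 0.35, 95% interval 0.24 to 1.77, exact permutation p = 0.0556, limma adjusted p = 1.00). It was nominal in each of the 10 fits that left out 1 library. The fold change was 1.57 with a pseudocount of 0.1 and 1.35 without AAV-ChREBP library 3. It fell under 1 without AAV-GFP library 1 (0.90) or 4 (0.90) and without AAV-ChREBP library 4 (0.83), 7 (0.93) or 8 (0.85).

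The pumps that sarcolipin acts on did not follow. Atp2a1, the fast fibre pump, had 8744 ± 615 and 9006 ± 529 FPKM, and Atp2a2, the slow fibre pump, 28.4 ± 17.2 and 23.6 ± 11.6 FPKM. Pln, phospholamban, a related inhibitor, had 0.996 ± 0.286 and 0.803 ± 0.201 FPKM, and Mrln, myoregulin, 25.3 ± 2.83 and 26.8 ± 6.04 FPKM. Among 18 genes of calcium release and storage 9 were higher and 9 lower, none nominal, with log2 fold changes from -0.16 to 0.11 (14 higher and 4 lower without AAV-GFP library 7).

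The 8 non-overlapping genes with the smallest p on the high side were Mlxipl, Chrnd, Mpeg1, H2-Q7, Atp1b2, Sult5a1, Retnla and Tmem18. None but Mlxipl passed the adjusted p. Chrnd and H2-Q7 had AAV-GFP means under 0.5 FPKM and reached the filter only through the AAV-ChREBP group, where they are high, so that their values are a description. The absence of overlap chose these genes and is no further test of them. Chrnd, the delta subunit of the acetylcholine receptor, had 0.491, 0.475, 0.419, 0.556 and 0.475 FPKM with AAV-GFP and 0.690, 0.765, 0.736, 0.802 and 0.842 FPKM with AAV-ChREBP. The gap was narrow in FPKM at a level close to the filter, with a log2 fold change of 0.25 (SE 0.06), and of 0.57 with a pseudocount of 0.1. Atp1b2, a sodium pump subunit and the most abundant of the 8, had 106.1, 98.3, 108.9, 105.4 and 111.2 FPKM against 132.7, 126.4, 126.9, 111.5 and 131.5 FPKM. AAV-ChREBP library 7 lay just above the highest control, and the log2 fold change was 0.24 (SE 0.06).

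H2-Q7, a non-classical major histocompatibility gene, had 0.414 ± 0.106 and 0.961 ± 0.292 FPKM (log2 fold change 0.46, SE 0.10, and 1.02 with a pseudocount of 0.1), and it belongs to a family of close copies among which reads may be split. Sult5a1, a sulfotransferase, had 0.640 ± 0.265 and 1.2 ± 0.242 FPKM. Retnla, a resistin-like gene of alternatively activated macrophages and fat, had 21.5 ± 3.16 and 28.9 ± 4.14 FPKM. Tmem18 had 3.00 ± 0.156 and 3.64 ± 0.202 FPKM.

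On the low side the same rule gave Nxt1, Ebpl, Car3, Anks3, Arhgap10, Ddx31, Pip4p2 and Mkrn1, none past the adjusted p. Car3, the carbonic anhydrase of slow and oxidative muscle and of fat, had 1050, 1091, 1227, 1079 and 1053 FPKM with AAV-GFP and 880, 889, 973, 896 and 1036 FPKM with AAV-ChREBP. All AAV-ChREBP libraries were lower, library 8 by the least, with a log2 fold change of -0.24 (SE 0.06). Nxt1, an mRNA export factor, had 2.43 ± 0.383 and 1.71 ± 0.215 FPKM (log2 fold change -0.34, SE 0.09). Ebpl had 0.960 ± 0.154 and 0.658 ± 0.0331 FPKM, and Anks3 2.66 ± 0.314 and 2.1 ± 0.126 FPKM. The remaining 4 had log2 fold changes from -0.18 to -0.12.

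Of 26 genes tested on the interferon and antigen presentation list, 16 were higher and 10 lower with AAV-ChREBP, 5 were nominal on the high side (2.39% of all genes) and 1 on the low side (0.525%), and none passed the adjusted p. The median log2 fold change was 0.03. Dropping AAV-GFP library 1 made it 0.07 (20 higher, 5 lower), and it was -0.02 without AAV-GFP library 7 (12 higher, 14 lower) or 8 (12 higher, 16 lower). It was 0.06 without AAV-ChREBP library 8, 0.05 with a pseudocount of 0.1, and 0.16 with a filter at 5 FPKM, which 8 of these genes reach, all of them higher and 5 nominal. The nominal members on the high side were H2-Ab1, H2-Eb1, H2-Aa, Cd74 and B2m. H2-Ab1, a class II beta chain, had 9.37, 12.7, 10.2, 10.2 and 10.4 FPKM in AAV-GFP libraries 1, 3, 4, 7 and 8 and 12.9, 15.4, 12.1, 14.4 and 11.9 FPKM with AAV-ChREBP. It was higher in all 5 pairs, although AAV-GFP library 3 overlapped the other group, and its log2 fold change was 0.31 (SE 0.09, exact permutation p = 0.0238). The partner chains H2-Eb1 (8.31 ± 0.856 and 10.5 ± 1.41 FPKM, log2 fold change 0.30) and H2-Aa (19.6 ± 1.61 and 24.2 ± 3.63 FPKM, log2 fold change 0.28) were likewise higher in all 5 pairs. These 3 genes were nominal in all 10 fits that left out 1 library. Cd74, the invariant chain, had 34.7 ± 3.07 and 40.6 ± 4.71 FPKM (log2 fold change 0.22), and B2m, the class I light chain, 86.2 ± 3.29 and 92.8 ± 3.39 FPKM (0.11). Both were nominal, in 5 and in 4 of the 10 such fits. Cd74 was not without AAV-GFP library 1 or 4 or AAV-ChREBP library 3, 4 or 7 (0.17 to 0.20), nor B2m without AAV-GFP library 1 or 4 or AAV-ChREBP library 1, 3, 7 or 8 (0.09 to 0.11).

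Isg15, a ubiquitin-like interferon target, was the nominal member on the low side, at 1.3 ± 0.426 and 0.798 ± 0.267 FPKM (log2 fold change -0.34, SE 0.14). It was nominal in 5 of the 10 fits that left out 1 library and not without AAV-GFP library 1, 3 or 7 or AAV-ChREBP library 1 or 3 (-0.31 to -0.28). The fold change was -0.63 with a pseudocount of 0.1.

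Of 16 macrophage markers tested 14 were higher and 2 lower, 2 of them nominal on the high side (2.39% of all genes), with a median log2 fold change of 0.14. Lyz2, the lysozyme of myeloid cells, had 31.1, 33.1, 33.1, 28.2 and 30.3 FPKM with AAV-GFP and 38.5, 39.1, 39.9, 47.7 and 32.6 FPKM with AAV-ChREBP. Only library 8 of the AAV-ChREBP group fell within the AAV-GFP range, and the log2 fold change was 0.33 (SE 0.09, exact permutation p = 0.0238). Mpeg1, a macrophage pore-forming protein that is not on the list and was named as a leading gene above, had 1.06, 1.16, 1.18, 1.2 and 1.18 FPKM with AAV-GFP and 1.59, 1.82, 1.66, 2.27 and 1.46 FPKM with AAV-ChREBP, with no overlap and a log2 fold change of 0.35 (SE 0.08). C1qa, a complement component made by macrophages, was nominal (9.42 ± 1.46 and 11.6 ± 1.65 FPKM), though not without AAV-GFP library 7 or 8 or AAV-ChREBP library 3, 4 or 7 (log2 fold change 0.19 to 0.26), and Cd68, their lysosomal marker, had 2.57 ± 0.267 and 3.26 ± 0.679 FPKM.

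The summed level of all 19 listed macrophage markers, tested or not, ran from 70.5 to 99.2 FPKM with AAV-GFP. With AAV-ChREBP it ran from 81.4 to 129.1 FPKM, where library 7 was the highest and library 8 the lowest. Dropping library 7 moved the median to 0.07 (AAV-ChREBP) or 0.09 (AAV-GFP), and dropping AAV-ChREBP library 8 moved it to 0.26 with 7 genes nominal (3.37% of all genes). Of 23 lymphocyte and granulocyte markers 4 were high enough to test, none nominal, and the list summed to 4.90 to 8.59 FPKM and 5.11 to 10.4 FPKM.

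**Figure D3:**
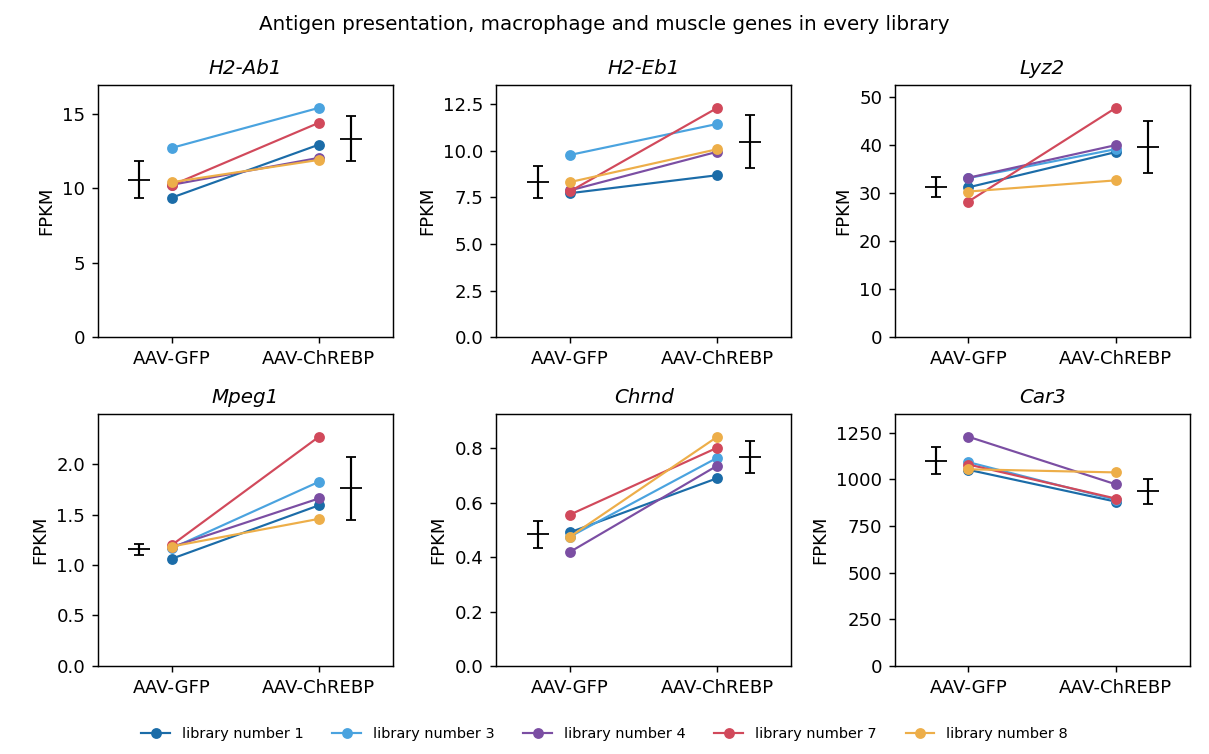
FPKM of H2-Ab1 and H2-Eb1 (antigen presentation), Lyz2 and Mpeg1 (macrophages), Chrnd (acetylcholine receptor) and Car3 (carbonic anhydrase) in every library, with lines joining equal library numbers and the mean ± SD (n = 5) in black. All 5 lines go up for the first 5 genes and down for Car3. Mpeg1, Chrnd and Car3 were picked for having no overlap, and Chrnd reached the filter only through AAV-ChREBP.

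Markers of other cell types overlapped between the vectors in their summed levels. Of 23 fibroblast, tendon and matrix genes, 22 had positive fold changes with a median of 0.13. Dropping AAV-GFP library 7 made it 0.02, and dropping AAV-ChREBP library 4, 7 or 8 made it 0.07, 0.09 or 0.22. Mfap5, a microfibril protein, was the nominal one (6.89 ± 1.03 and 8.10 ± 0.584 FPKM) in 4 of the 10 fits that left out 1 library, without AAV-GFP library 1 or 3 or AAV-ChREBP library 4 or 7, and Col1a1, the main collagen chain, had 77.7 ± 25.0 and 98.9 ± 45.5 FPKM. The summed matrix level ran from 641 to 1187 FPKM and from 725 to 1418 FPKM. Endothelial markers gave 12 of 16 higher and none nominal, with 5 of 16 higher without AAV-GFP library 4 and 8 of 16 after rescaling. Of 13 pericyte and smooth muscle markers 9 were higher and 4 lower, with a median of 0.03 (2 higher and 11 lower without AAV-ChREBP library 7). Kcnj8 among them, a potassium channel of pericytes, was nominal on the low side (log2 fold change -0.34), except without AAV-ChREBP library 8 (-0.29). All 7 red cell genes tested were higher, none nominal. With the library number as a block, 2 were nominal on the high side (4.3% of all genes). Copies among the globins may share reads. The 9 listed genes summed to 460 to 931 FPKM with AAV-GFP and 441 to 1071 FPKM with AAV-ChREBP. The median of the 7 tested, 0.13, was 0.02 without AAV-ChREBP library 3 and 0.30 without AAV-ChREBP library 8. Schwann cell markers summed to 56.9 to 84.7 FPKM with AAV-GFP and 50.9 to 140.5 FPKM with AAV-ChREBP, where library 7 was the highest. The part of these cells in the values above was not tested.

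Programs of muscle repair showed few differences. Of 19 genes of satellite cells and myogenic factors 14 were higher and 5 lower, none nominal, with log2 fold changes from -0.12 to 0.13 (9 higher and 10 lower without AAV-GFP library 4). Of 11 regeneration and fusion genes 4 were higher and 7 lower (7 and 4 without AAV-GFP library 8). Csrp3 had the largest fold change of these, at -0.62 and not nominal (-0.32 without AAV-GFP library 3). Without AAV-GFP library 4 it was -1.17, and 3 genes of the list were nominal on the low side (1.07% of all genes). Ankrd1, a stretch-responsive ankyrin repeat protein, was nominal (2.9 ± 0.866 and 3.84 ± 0.613 FPKM, log2 fold change 0.33, SE 0.14), though not without library 1, 4 or 7 of either group (0.25 to 0.34). Myl4, an embryonic light chain, was higher in all 5 pairs (log2 fold change 0.34, SE 0.19, and 0.18 without AAV-GFP library 4). Tnnt2, the fetal and cardiac troponin T, was lower in all 5 (log2 fold change -0.24, SE 0.12, and -0.17 without AAV-GFP library 7).

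The atrophy and FoxO list split into 10 higher and 10 lower with a median of 0.01, and no member was nominal. Without AAV-ChREBP library 7 the list gave 14 higher and 6 lower, and without AAV-GFP library 7 it gave 7 and 13. Of 16 neuromuscular junction and denervation genes Chrnd, which reached the filter only through AAV-ChREBP, was the nominal one, whereas Chrna1, the alpha subunit of the same receptor, was at 3.52 ± 0.466 and 3.23 ± 0.197 FPKM. Among 17 genes of the unfolded protein and integrated stress responses Mthfd2, a mitochondrial folate enzyme, was nominal on the low side (1.72 ± 0.288 and 1.35 ± 0.192 FPKM), though not without AAV-GFP library 1 or 4 or AAV-ChREBP library 1 or 8 (log2 fold change -0.21 to -0.15). Heat shock genes split 9 to 9, and immediate early genes 7 to 7, with none nominal. Ribosomal protein genes gave 16 of 24 higher and a median of 0.02. These counts moved with single libraries. The heat shock list gave 3 higher and 15 lower without AAV-GFP library 8 or AAV-ChREBP library 7, and 12 higher and 6 lower without AAV-GFP library 7 or AAV-ChREBP library 3. The immediate early list gave 13 higher and 1 lower without AAV-ChREBP library 3, and 12 and 2 without AAV-GFP library 1. All 24 ribosomal genes were higher without AAV-GFP library 7 or AAV-ChREBP library 4, whereas 5 were without AAV-ChREBP library 8 and 6 without AAV-GFP library 1. After rescaling, 5 of 18 heat shock genes and 13 of 24 ribosomal genes were higher.

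**Figure D4:**
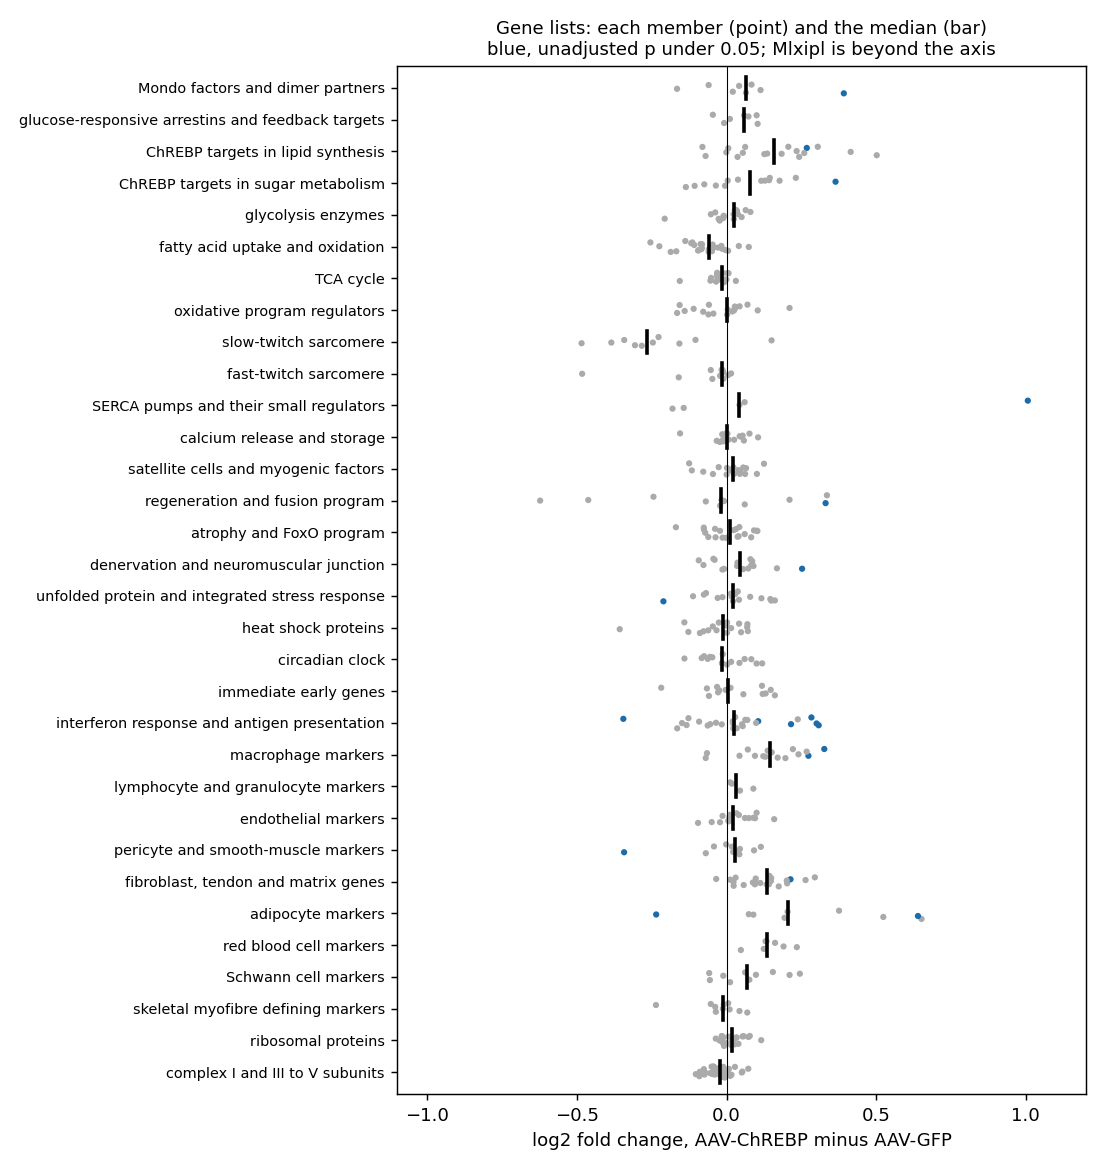
Log2 fold change (AAV-ChREBP minus AAV-GFP) of every tested member of the 32 gene lists, 1 row per list, with a black bar at the list's median and blue for an unadjusted p under 0.05. Mlxipl, at 2.74, is left off the axis. Most medians lie near 0, the adipocyte list has the highest (0.20), and the slow-twitch list the lowest (-0.26).

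The largest axis of variation separated libraries 7 and 8 of both vectors from libraries 1, 3 and 4. The first principal component held 33.6% of the variance of log2 values and placed libraries 7 and 8 of both vectors between 9.35 and 15.8. Libraries 1, 3 and 4 of both vectors lay between -12.7 and -1.56, and the vectors overlapped within each set. The 10 genes with the largest loadings were Myh7, Tnnc1, Tnnt1, Myl2, Tnni1 and Myl3, which are slow sarcomere genes, at the positive end, and Socs1, Dbp, Nmrk2 and Socs3 at the negative end. Nr1d1, Arntl and Nfil3 of the clock followed within the first 20.

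Dbp, an output gene of the circadian clock, had 41.3, 27.2, 27.9, 5.73 and 5.97 FPKM in AAV-GFP libraries 1, 3, 4, 7 and 8 and 43.5, 26.1, 31.8, 6.26 and 5.54 FPKM in the AAV-ChREBP ones. Arntl, the clock activator also known as Bmal1, ran the opposite way, with 2.25, 4.18, 4.23, 12.8 and 12.2 FPKM and 1.90, 3.99, 3.80, 13.0 and 12.3 FPKM. Values of equal number were close in both vectors, while libraries 7 and 8 stood several-fold from the rest. Over the 16 clock genes tested no member was nominal between the vectors. With the library number as a block, 1 was nominal on the high side and 1 on the low side (4.3% and 1.55% of all genes). The median log2 fold change was -0.01. It ran from -0.08 without AAV-ChREBP library 4 to 0.10 without AAV-ChREBP library 7. Socs1, a cytokine signalling inhibitor, had 2.94 to 6.54 FPKM in libraries 1, 3 and 4 of both vectors and 0 to 0.312 FPKM in libraries 7 and 8.

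The 204 genes lower in all 5 pairs (1.84%) included Nmrk2 and Sbk2. Nmrk2, the muscle nicotinamide riboside kinase, had 79.4, 20.6, 63.9, 11.9 and 12.2 FPKM with AAV-GFP and 57.99, 15.0, 49.5, 9.99 and 9.29 FPKM with AAV-ChREBP. Sbk2, a kinase gene of striated muscle, had 42.7, 42.4, 40.1, 19.7 and 14.1 FPKM against 28.6, 24.6, 20.1, 13.4 and 10.8 FPKM. Neither was nominal without the block (exact permutation p = 0.571 and 0.159), and with the library number as a block both had an adjusted p of 0.0687 (limma). Nmrk2 was named for its loading, and Sbk2 after its values were seen.

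**Figure D5:**
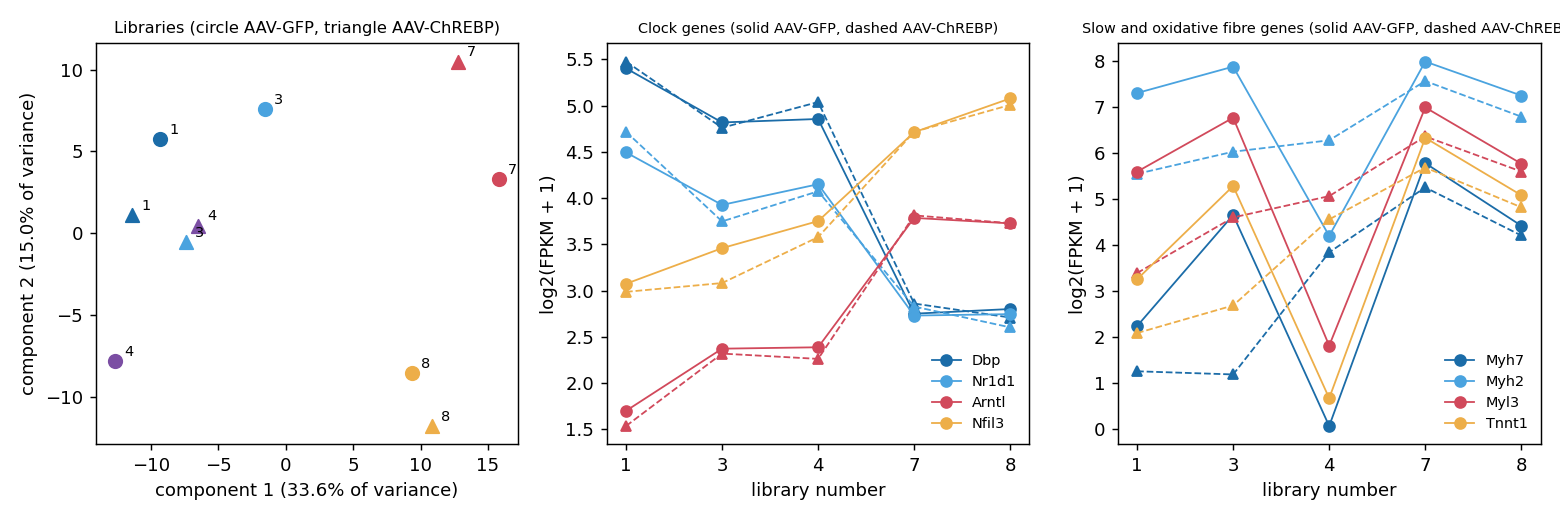
Left, the first and second principal components of log2(FPKM + 1), coloured by library number, with circles for AAV-GFP and triangles for AAV-ChREBP. Middle and right, log2(FPKM + 1) of clock genes and of slow and oxidative fibre genes by library number, solid for AAV-GFP and dashed for AAV-ChREBP. Clock genes of equal number coincide between the vectors, and libraries 7 and 8 stand apart.

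Values of the same genes in the series' other manipulations of ChREBP are given side by side, since each table was normalized by itself. In C2C12 cells, a mouse myoblast line, with 4 vector and 4 ChREBP cultures at day 7 of myogenic differentiation, Mlxipl went from 0.005 ± 0.01 to 13.4 ± 0.409 FPKM (limma adjusted p = 8.03e-13). In chow-fed gastrocnemius of 5 F/F and 5 ChMKO mice, the study's muscle knockout of ChREBP, Mlxipl was at 24.9 ± 4.10 and 15.7 ± 2.53 FPKM (log2 fold change -0.63, limma adjusted p = 0.414). The paper reports a marked loss of ChREBP mRNA in ChMKO gastrocnemius by qRT-PCR, and of the protein by Western blot. The knockout deletes part of the gene, and a gene-level FPKM also counts the exons that remain. Txnip had a log2 fold change of 0.10 (SE 0.11) with AAV-ChREBP, 0.21 (SE 0.03) in C2C12 and -0.37 (SE 0.18) in ChMKO muscle. Mlxip had 0.39 (SE 0.10), -0.16 (SE 0.04) and -0.13 (SE 0.09) in the same order. Arrdc4 had 0.01 (SE 0.14), -0.83 (SE 0.07) and 0.01 (SE 0.10).

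Chrnd had 0.25 (SE 0.06) in AAV muscle, 0.34 (SE 0.04) in C2C12 and -0.06 (SE 0.19) in ChMKO muscle, and in AAV muscle it reached the filter only through AAV-ChREBP. Lyz2 had 0.33 (SE 0.09) in AAV muscle and 0.40 (SE 0.20) in ChMKO muscle, and H2-Ab1 had 0.31 (SE 0.09) and 0.27 (SE 0.17). Neither was tested in C2C12. Fasn had 0.42 (SE 0.28) in AAV muscle, -0.21 (SE 0.03) in C2C12 and 0.59 (SE 0.22) in ChMKO muscle. The lipid synthesis list had a median of 0.16 in AAV muscle, -0.07 in C2C12 and 0.08 in ChMKO muscle. The macrophage list had 0.14 in AAV muscle and 0.37 in ChMKO muscle. In C2C12, a myoblast line, 6 of its members were tested (median -0.06), which cannot stand for macrophages. These differences between experiments were not tested.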

How the data were processed

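RNA of 10 gastrocnemius libraries was analysed. The authors deposited FPKM per gene, made after fastp 0.18.0 trimming and Bowtie2 2.2.8, HISAT2 2.1.0, StringTie 1.3.1 and RSEM, with GRCm39 named as the build in the submitters' processing notes. The authors' means, fold changes, p-values and FDR columns were not used. Symbols were taken from RefSeq by gene ID (20918 of 21039 matched). Values were analysed as log2(FPKM + 1) for genes averaging 0.5 FPKM or more, with limma 3.58.1 in R 4.3.3 (trended prior, 2-sided, Benjamini-Hochberg over all genes tested) in place of the DESeq2 test on counts that the authors ran without correction, since the table used here holds no counts. Single genes were also tested by exact permutation. The fit was tested on simulated data. The labels do not state separate mice, so p-values measure the spread between these libraries.

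Same-numbered libraries deviated together (correlations 0.455, 0.211, 0.245, 0.482 and 0.490 for numbers 1, 3, 4, 7 and 8), so the numbers were taken to pair them, from the data and not from the labels. By best match, AAV-GFP library 4 went with AAV-ChREBP library 1 and AAV-ChREBP library 3 with AAV-GFP library 4, and the others with their own number. The correlated deviations include libraries 7 and 8 standing apart from 1, 3 and 4. Named genes were, for each list, the members with the smallest p, the most abundant and the defining ones; the 8 non-overlapping genes with the smallest p in each direction; all genes past a criterion; and the 10 largest loadings. The genes and lists were chosen with earlier results of these data known. Alternatives were another pseudocount (0.1), another filter (5 FPKM or none), rescaling, array weights, the library number as a block and leaving out each library. Depth was estimated from the step between low values of single-exon genes, so it is approximate. Promoters are from RefSeq, build GRCm38.p6.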

Additional observations from a re-analysis of the deposited data

Results flagged for a closer look

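Within each group of 5, a library was singled out where its gap to the nearest other exceeded 0.71 of the group's range, which chance does in about 1 in 20 groups. Of 224 groups checked for 112 genes, most but not all of them named above, 17 had such a library. In AAV-GFP library 4, the fibre genes Myh2 (17.4 FPKM, next 151.7, gap share 0.805), Myl3 (2.51 FPKM, next 47.4, 0.730) and Myh1 (106.9 FPKM, next 288.6, 0.744) were lowest, and Car3 (1227 FPKM, next 1091, 0.754) was highest. In AAV-ChREBP library 7, Fasn (12.2 FPKM, next 4.33, 0.735), Acly (8.70 FPKM, next 4.44, 0.730) and Fabp3 (166.2 FPKM, next 134.1, 0.816) were highest and Atp1b2 (111.5 FPKM, next 126.4, 0.721) lowest. In AAV-ChREBP library 8, Arrdc3 was highest (25.2 FPKM, next 13.0, 0.882) and Cd68 lowest (2.05 FPKM, next 3.51, 0.934). In AAV-ChREBP library 1, Sult5a1 (1.65 FPKM, 0.864) and Ebpl (0.716 FPKM, 0.769) were highest and Mkrn1 (3.09 FPKM, 0.755) lowest. Mxd1 was highest in AAV-ChREBP library 4 (1.17 FPKM, 0.779), Pln highest (1.496 FPKM, 0.766) and Mylpf lowest (9915 FPKM, 0.722) in AAV-GFP library 3, and Mpeg1 lowest in AAV-GFP library 1 (1.06 FPKM, 0.769).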

How the results depend on the processing

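Mlxipl passed the adjusted p in all 17 alternatives, with log2 fold changes from 2.67 to 2.92 (2.67 to 2.9 when 1 library was left out). Genes past the study's criterion numbered 5 with a pseudocount of 0.1 (Mlxipl, Sln, Ltc4s and H2-Q7 higher, H2ac19 lower) and 1 with a filter at 5 FPKM, which Sln does not reach, and from 1 (without AAV-ChREBP library 7 or 8) to 5 (without AAV-GFP library 4) when 1 library was left out. Nominal genes numbered 114 with the filter at 5 FPKM and 593 with no filter, where fewer or more genes were tested, and 647 with the library number as a replicate block. The block changed no call at the adjusted p. Genes without overlap numbered 19 with the filter at 5 FPKM, from 103 to 175 when 1 library was left out, 839 when all 5 pairs had to share a direction, and 907 in libraries 1, 3 and 4 of each vector alone, a subset chosen after seeing the data, where fewer libraries have to be separated. The fits without 1 library gave 273 to 436 nominal genes. At this depth genes near 0.5 FPKM rest on few fragments, and several-fold differences of slow fibre genes lie within the spread.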
